A study of Schizosaccharomyces pombe with 4 samples.

Results

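The genes tef101, tef102 and tef103 encode elongation factor 1 alpha (EF1A) in the fission yeast Schizosaccharomyces pombe. Their small RNA windows were taken from the authors' deposited table of windows that differed between a strain labelled ABP1d and the wild type. A window belonged to a gene if it overlapped the annotated gene by at least 1 base, and 21 of the 4012 listed windows did. There were 6 on tef101, 7 on tef102 and 8 on tef103. The table lists only windows with a deposited p-value of up to 0.0494, so the members were chosen by the ABP1d and WT values of the contrast described here, and their direction and ratios are a description with no test. Windows were then sorted into those with the same length and the same reads in all 3 genes and those found in one gene.

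Both strains grew exponentially in rich medium without treatment, and 2 small RNA libraries were made from each. The wild-type libraries are labelled WT, and the others carry the genotype ABP1d, named for Abp1, a homolog of the DNA-binding centromere protein CENP-B. No other allele is given for either group, and nothing in the labels says whether the libraries of a strain came from separate cultures. The deposited values are RPKM (reads per kilobase of window and scaled to a strain total), with 1 pooled value per strain. Strain totals were taken as the smallest that turn RPKM times length into whole reads, 23817270 in ABP1d and 14466014 in WT. By that choice the reads were whole in 4012 of 4012 windows. What those totals count was not given in the sources used here. Thus the depth of each library is unknown, and the spread between libraries could not be used for any comparison. All intervals are exact 95% binomial intervals for ratios or exact Poisson intervals for levels, and they cover counting error only.

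EF1A is a GTP-binding protein that carries aminoacyl-tRNA to the ribosome during the elongation of a protein chain. It is among the most abundant proteins of a growing yeast cell and its mRNA is correspondingly plentiful. Small RNA libraries made by adapter ligation and size selection can hold short pieces of abundant mRNAs as well as products of RNA interference. A short read from a family of near-identical genes can match every copy.

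All 3 genes have 1 annotated exon and a coding sequence (CDS) of 1383 bases, in the RefSeq assembly ASM294v3. The gene tef101 lies on the minus strand of chromosome III at 267955 to 269516. The gene tef102 lies on the plus strand of chromosome I at 4095132 to 4096584, and its annotated 3′ end is the end of the CDS. The gene tef103 lies on the minus strand of chromosome II at 626004 to 627522. Without gaps, the coding sequences of tef101 and tef102 were 98.8% identical, those of tef101 and tef103 98.6%, and those of tef102 and tef103 98.9%. The 3 genes differed at 25 of the 1383 positions. These lay in 25 codons, of which 24 encode the same residue in all 3 genes, and tef102 and tef103 encode the same protein. Runs of at least 18 bases that are identical in all 3 genes made up 94.6% of the CDS. Runs of at least 38 bases, the number of sequencing cycles, made up 87.1%.

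The first set of sequences shows the windows that all 3 genes share, since they carry most of the reads described here. Each line gives the sense strand of a window in capitals with 15 bases on either side in lower case, and its position counted from the A of the start codon. Coordinates in ASM294v3 for the printed stretches are chr3:269286-269321, chr3:269153-269199, chr3:268821-268867, chr3:268783-268829 and chr3:268322-268375, all on the minus strand of chromosome III (tef101). The same letters stand in tef102 and tef103.
CDS 174 to 179: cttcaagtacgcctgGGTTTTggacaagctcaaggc
CDS 296 to 312: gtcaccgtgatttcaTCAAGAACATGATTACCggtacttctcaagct
CDS 628 to 644: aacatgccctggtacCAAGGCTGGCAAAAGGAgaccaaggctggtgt
CDS 666 to 682: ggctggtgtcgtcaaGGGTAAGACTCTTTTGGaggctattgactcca
CDS 1120 to 1143: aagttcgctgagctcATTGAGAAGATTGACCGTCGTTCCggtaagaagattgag

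The remaining shared window, CDS 753 to 760, is shown for each gene because its surroundings are not fully identical. The stretches lie at chr3:268705-268742 on the minus strand (tef101), chr1:4095939-4095976 on the plus strand (tef102) and chr2:626714-626751 on the minus strand (tef103). The capitals again mark the window, and 1 base among the flanking ones differs.
tef101: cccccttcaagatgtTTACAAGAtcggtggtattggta
tef102: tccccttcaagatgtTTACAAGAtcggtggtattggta
tef103: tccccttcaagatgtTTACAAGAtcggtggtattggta

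The start of the CDS is shown because a window of tef103 alone crosses it. The stretches lie at chr3:269449-269479 on the minus strand (tef101), chr1:4095202-4095232 on the plus strand (tef102) and chr2:627458-627488 on the minus strand (tef103). Here the capitals mark the 2 positions at which the genes differ.
tef101: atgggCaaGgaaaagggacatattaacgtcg
tef102: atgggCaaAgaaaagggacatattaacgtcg
tef103: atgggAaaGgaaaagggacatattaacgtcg

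Aligned by position in the gene, 18 of the 21 windows fell into 6 sets of 3, 1 window per gene at the same CDS positions, and the other 3 windows belonged to one gene. The 21 windows are therefore 9 distinct ones. The sets were at CDS 174 to 179, 296 to 312, 628 to 644, 666 to 682, 753 to 760 and 1120 to 1143. All 18 windows had the same sequence in the 3 genes, so the sorting by reads and length and the sorting by sequence gave the same sets. The equal reads of a set are what the sorting used, while position and sequence were not. The 3 genes are thus not independent measurements of these small RNAs, and the reads of a shared window cannot be assigned to one of them.

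**Figure D1:**
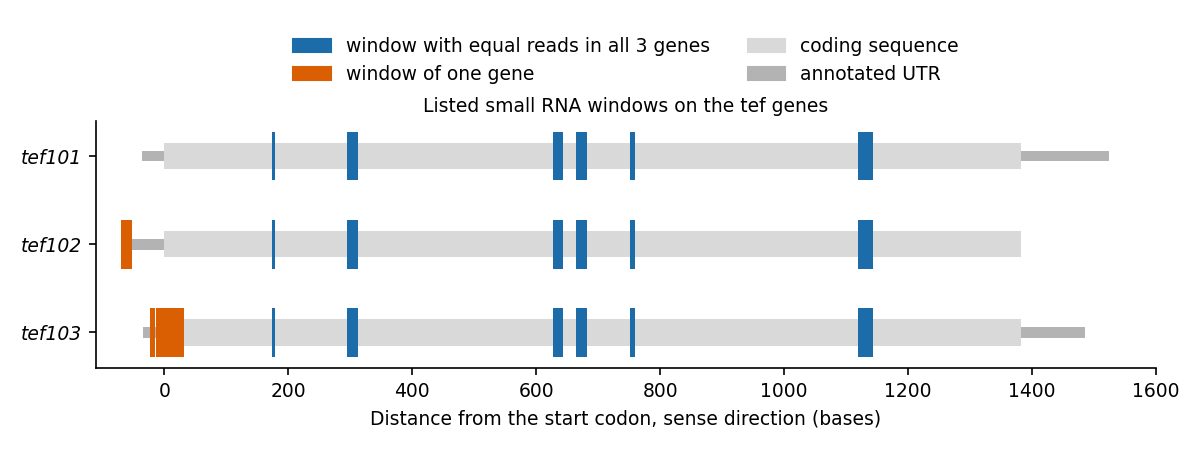
Position of the 21 listed windows on the 3 genes, aligned at the start codon; the x axis is the distance from the start codon in bases, light bars are coding sequences, thin bars annotated UTRs, blue blocks windows with equal reads in all 3 genes and orange blocks windows of one gene. The 6 blue windows stand at the same CDS positions in every gene, and the 3 orange ones lie at the 5′ ends of tef102 and tef103.

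Each shared window lay inside a longer stretch without a difference between the genes. The windows at CDS 628 to 644 and 666 to 682 lay in the longest such stretch, 218 bases at CDS 520 to 737, and were 21 bases apart. The window at CDS 1120 to 1143 lay in a stretch of 185 bases and the one at 296 to 312 in a stretch of 120 bases. The stretches around CDS 174 to 179 and 753 to 760 were 77 and 56 bases long. For the window at CDS 753 to 760 the nearest difference was just beyond 14 identical bases on its 5′ side, the shortest such distance of the 6. Extended by 10 bases on each side, every shared window occurred exactly 3 times on chromosomes I to III, once in each tef gene. The shared windows together had a GC content of 42.7%, against 50.1% to 50.8% for the 3 coding sequences.

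**Figure D2:**
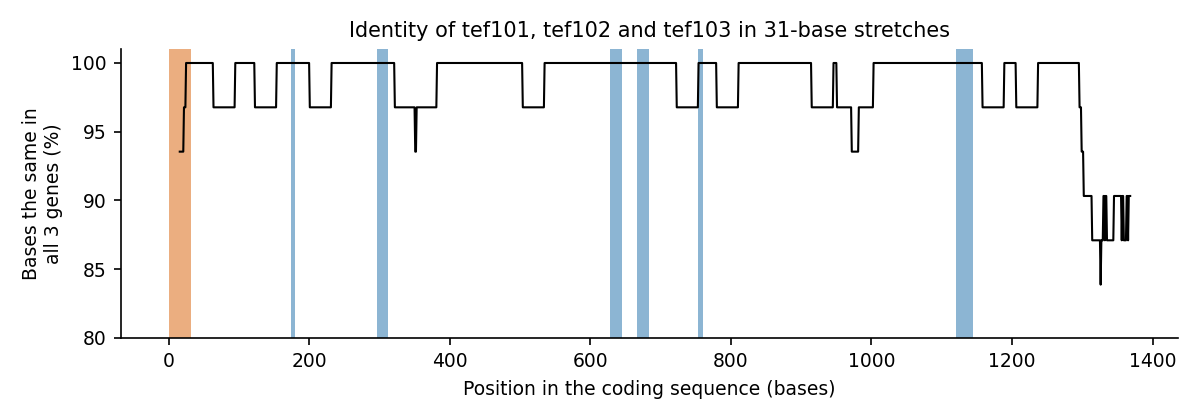
Share of bases that are the same in all 3 genes (y axis, percent, not starting at 0) in 31-base stretches along the coding sequence (x axis, bases); blue bands are shared windows and the orange band is the coding part of the tef103 start codon window. The blue bands stand where identity is at or near its maximum, and the lowest identity is in the last 83 bases, which hold 10 of the 25 differing positions and no window.

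Equal reads and length alone did not mark a copy of the gene. The window at CDS 666 to 682, with 13 ABP1d reads and 2 WT reads over 17 bases, had the same values as 83 windows outside the tef genes. The window at CDS 296 to 312 had 5 such matches, the one at 753 to 760 had 2 and the one at 628 to 644 had 1. None of these windows had the sequence of the tef window on either strand. For these tef windows, length and reads alone also matched windows of other sequence, and the sequence separated them. Whether the 83 windows are copies of one another was not examined. Of all 15853 pairs of listed windows of at least 15 bases with equal length and reads, 6524 were identical and 5364 were reverse complements.

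At the scale of the strain totals all 21 windows were higher in ABP1d, while 11 stayed above 0 on the log2 scale with snRNA windows centred and 10 with protein-coding windows centred. The background for the count of 21 is 82.9% of the 4012 listed windows and 92.0% of the 873 windows on protein-coding genes (windows without repeats, structured RNAs or A/T runs). Centring on protein-coding windows subtracts their median log2 ratio of 2.09, so a large part of them falls to 0 or below by construction. The snRNA shift was nearly as large, at -2.03. Nothing about the tef genes is read from either centred count. Counted once, all 9 were higher at the scale of the strain totals. The direction is thus that of most of the table, and nothing about the tef genes is read from it. WT was at 0 reads in 7 of the 21 windows, or 3 of the 9 distinct ones, against 42.7% of all listed windows and 30.5% of those on protein-coding genes. The levels lay between 31.7 and 105 RPKM in ABP1d and between 0 and 11.5 RPKM in WT. The windows were listed because the strains differ, so nothing is read from the gap between these ranges.

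The best covered shared window was the one at CDS 1120 to 1143, 24 bases long. It had 43.7 RPKM in ABP1d (25 reads; 28.3 to 64.6) and 8.64 RPKM in WT (3 reads). The ratio was 5.06 (1.54 to 26.2), and the deposited p-value in the authors' deposited table was 0.00206. This window lies late in the gene, and no listed window followed it in the remaining 240 bases of the CDS.

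Among the other shared windows, 2 had no read in WT. The 6-base window at CDS 174 to 179 had 105 RPKM in ABP1d (15 reads; 58.7 to 173) and 0 in WT. Against the floor of 3 reads over the pooled strain, its ratio was 3.04, with an exact lower limit of 2.18. The 17-base window at CDS 628 to 644 had 32.1 RPKM in ABP1d (13 reads) and 0 in WT. Against the same floor its ratio was 2.63, with an exact lower limit of 1.85. These 2 ratios are set by the chosen floor and the few ABP1d reads, and are not measured ratios. A lower floor would raise them. The shared window at CDS 296 to 312, with the same 15 ABP1d reads but 1 WT read, had a ratio of 9.11.

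The 3 remaining shared windows had 1 or 2 reads in WT. The window at CDS 296 to 312 had 37.0 RPKM in ABP1d (15 reads) and 4.07 RPKM in WT (1 read), a ratio of 9.11 with an interval of 1.40 to 384. The window at CDS 666 to 682 had 32.1 RPKM (13 reads) and 8.13 RPKM (2 reads), a ratio of 3.95 with an interval of 0.894 to 36.03. The window at CDS 753 to 760 had 57.7 RPKM (11 reads) and 8.64 RPKM (1 read), a ratio of 6.68 with an interval of 0.971 to 288. The intervals of the last 2 windows include 1, although the authors' deposited table lists them with p-values of 0.0456 and 0.0264. For these 2, the difference was not separable from counting error by the exact interval.

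The windows of one gene were all at 5′ ends, where the annotated untranslated regions differ in length (37 bases in tef101, 70 in tef102 and 34 in tef103). The window of tef102 alone, at 4095132 to 4095149 of chromosome I, starts at the first annotated base of the gene, 70 to 53 bases before the start codon. It had 70.0 RPKM in ABP1d (30 reads; 47.2 to 99.9) and 11.5 RPKM in WT (3 reads), a ratio of 6.07 (1.89 to 31.1). Its sequence occurred once on chromosomes I to III. However, 17 of its 18 bases also belong to the 3′ end of the gene rbm8 on the same strand. A small RNA from this place cannot be assigned to tef102 rather than to rbm8. All 18 bases lie within the annotated tef102, as all 21 windows lie wholly within their gene.

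The windows of tef103 alone were on chromosome II. One at 627458 to 627502 spans the start codon, with 14 bases before it and 31 bases of CDS. It had 31.7 RPKM in ABP1d (34 reads; 22.0 to 44.3) and 7.68 RPKM in WT (5 reads), a ratio of 4.13 (1.61 to 13.5), and it was the window with the most reads on any tef gene. Its sequence occurred once on chromosomes I to III, and its coding part, printed above, differs from tef101 at 1 position and from tef102 at 2. The second, 8 bases at 627505 to 627512 in the 5′ untranslated region, had 89.2 RPKM in ABP1d (17 reads, 52.0 to 143) and 0 in WT. Its ratio against the floor of 3 reads was 3.44, with an exact lower limit of 2.51. Its 8 bases alone have 511 exact matches on chromosomes I to III, and with 10 bases added on each side there is 1. Only 2 bases separate the windows, so reads that span both may be counted in each.

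**Figure D3:**
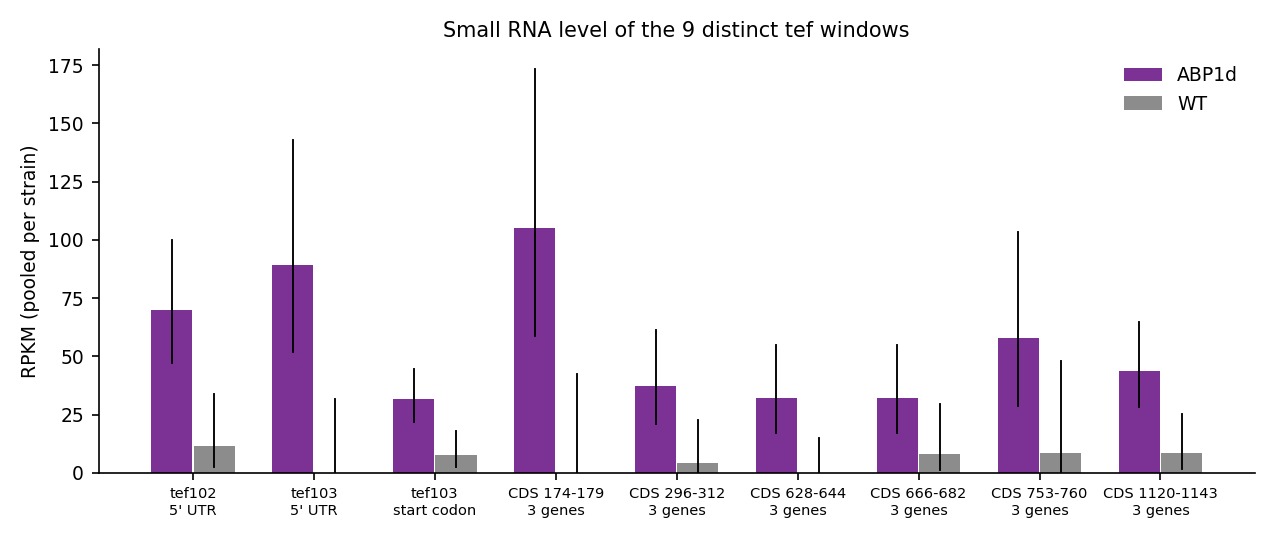
RPKM of the 9 distinct windows (y axis) in ABP1d (purple) and WT (grey), 1 pooled value per strain, with exact 95% Poisson intervals as lines; windows marked 3 genes have the same value in tef101, tef102 and tef103. On this deposited scale the ABP1d bars lie from 31.7 to 105 RPKM and the WT bars from 0 to 11.5 RPKM, and several lines overlap. The windows were listed because the strains differ.

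Summed over its windows, tef101 had 92 ABP1d reads and 7 WT reads, a ratio of 7.98 (3.72 to 20.4). The gene tef102 had 122 and 10, a ratio of 7.41 (3.89 to 15.8). The gene tef103 had 143 and 12, a ratio of 7.24 (4.02 to 14.3). The 3 intervals overlap almost wholly, and the sums share the 92 reads of the common windows, which were 100% of the ABP1d reads of tef101, 75.4% of those of tef102 and 64.3% of those of tef103. The listed windows covered 5.70% of tef101, 7.36% of tef102 and 9.35% of tef103. With protein-coding windows centred, the 3 ratios became 1.88, 1.74 and 1.70, so their size depends on the scaling. The table does not give how the rest of each gene was covered.

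The part listed outside the shared windows was small, and its reads cannot all be assigned to a gene. The 3 windows of one gene had 81 ABP1d reads and 8 WT reads, a ratio of 6.15 (2.98 to 14.7), against 7.98 for the shared windows counted once. The difference between the shared windows and the windows of one gene was not tested, since both were listed through the same contrast. Without the window shared with rbm8, the tef103 windows alone had 51 and 5 reads, a ratio of 6.20 (2.49 to 19.9). For tef101 no window of its own was listed.

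**Figure D4:**
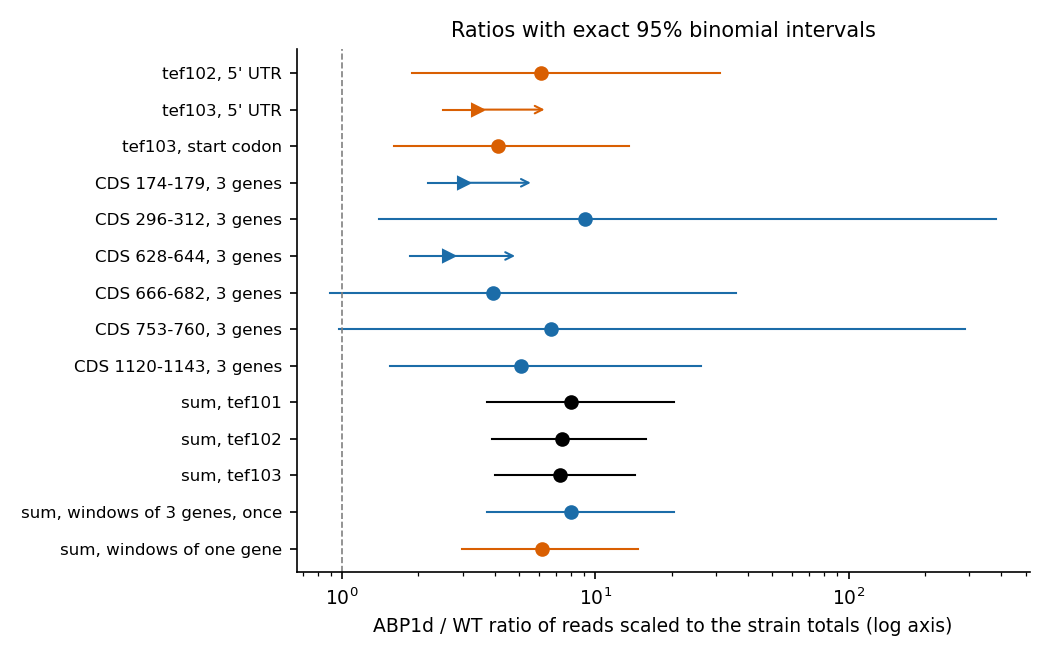
ABP1d to WT ratio of reads scaled to the strain totals (x axis, log scale) for each distinct window and for sums, with exact 95% binomial intervals. Where WT had 0 reads, arrows start at the ratio against a floor of 3 reads. The lines to the left of the arrows reach the exact lower limit, and the dashed line is a ratio of 1. The intervals at CDS 666 to 682 and 753 to 760 cross 1, and the sums of the 3 genes lie between 7.24 and 7.98 (1.70 to 1.88 with protein-coding windows centred).

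The tef windows stood at or above the lowest counts listed in the table for the same number of WT reads. Among all listed windows with 0 WT reads and a higher ABP1d value, the lowest ABP1d count was 10, and the tef windows of this kind had 13, 15 and 17. With 1 WT read the lowest listed count was 10 and the tef counts were 11 and 15. With 2 WT reads the lowest listed count and the tef count were both 13. With 3 WT reads the lowest listed count was 16 and the lowest tef count 25, and with 5 WT reads they were 22 and 34. The tef windows had a median of 16 reads over both strains when counted once, against 32 over all listed windows and 19 over those on protein-coding genes. They were 6 to 45 bases long, with a median of 17 bases. Of the 21, 16 were shorter than 18 bases, so a window marks part of the reads assigned to it. The labels do not say how reads were assigned to windows.

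The median log2 ratio of the tef windows, with 0 reads set to 3, was 2.05 counted once or not, against 2.09 for the protein-coding windows and 2.09 for all listed windows. The summed ratio of the 9 distinct windows was 7.01 (4.13 to 12.8), and the protein-coding windows outside the tef genes gave 2.92 (2.84 to 3.001). That sum is weighted by its best covered windows, and the difference between both sums was not tested.

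**Figure D5:**
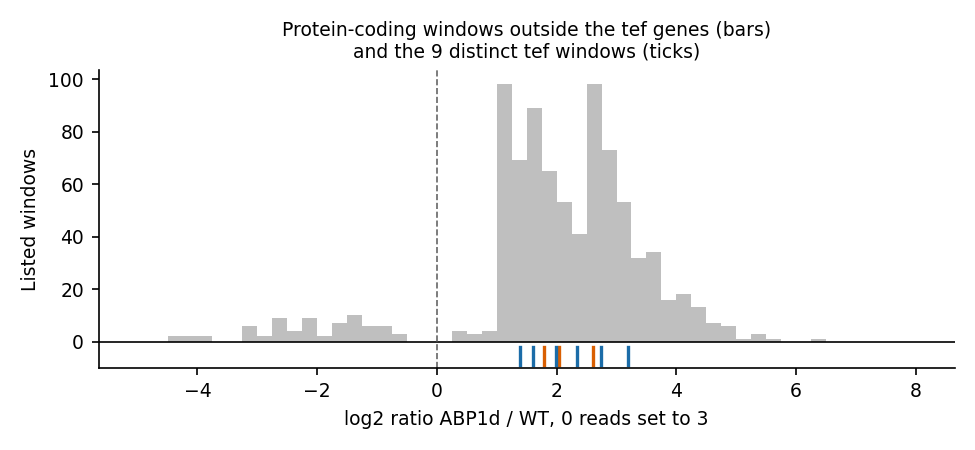
Distribution of the log2 ratio ABP1d to WT, with 0 reads set to 3 (x axis), over the 852 listed protein-coding windows outside the tef genes (bars, number of windows on the y axis), with the 9 distinct tef windows as ticks under the axis (blue, shared; orange, of one gene). The ticks lie within the main body of the bars, around the median of 2.09. Where WT had 0 reads, the place of a tick or bar is set by the floor.

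Most genes had fewer listed windows than the tef genes. Of the 5113 nuclear protein-coding genes, 715 had such a window, with a median of 1 per gene. Only 5 genes had 6 or more, namely the 3 tef genes and the subtelomeric helicase genes tlh1 (33 windows) and tlh2 (31 windows). In tlh1 and tlh2, 21 windows each had a counterpart with equal reads, length and sequence elsewhere. A counterpart of this kind was found for 18 of the 21 tef windows (85.7%) and for 75 of the 852 other protein-coding windows (8.80%). Apart from the tef genes, 4 genes had at least 3 windows with a counterpart, which were tlh1, tlh2 and the proteasome subunit genes rpn501 and rpn502. The shares are descriptions of the table, since the same reads stand at each copy of a near-identical gene.

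Transcripts annotated across the tef genes bear on the strand, which the files do not carry. The noncoding RNA SPNCRNA.957, on the strand opposite to tef102, overlaps 6 of its 7 windows, and SPNCRNA.1376, opposite to tef103, overlaps 2 of its 8. The gene tef101 is overlapped at its ends by efr3 and SPNCRNA.6769, both on the opposite strand, and neither overlaps a window. Sense and antisense reads could not be told apart at any of these places.

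Just outside the genes, 2 listed windows lay within 1000 bases. The nearer was 56 bases downstream of tef101, at 267840 to 267899 of chromosome III within efr3. It had 118 RPKM in ABP1d (169 reads) and 18.4 RPKM in WT (16 reads), a ratio of 6.42 (3.84 to 11.5), with more reads than any window inside a tef gene. The other was 741 bases downstream of tef102, where the ribosomal protein gene rpl1602 and the noncoding RNA SPNCRNA.3830 are both annotated. It had 172 RPKM in ABP1d (152 reads) and 13.1 RPKM in WT (7 reads), a ratio of 13.2 (6.25 to 33.4). No region of the tef genes was in the list of abundant regions of either strain. The highest tef window had 1.43 RPM (reads scaled to the strain total) in ABP1d, and the least abundant region of that list had 222.

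Of the 9 genes in a list of other translation factors, 3 had a listed window (33.3%), against 715 of the 5113 nuclear protein-coding genes (14.0%). The gene tef3, for elongation factor 3, which helps release the spent tRNA in fungi, had 1 window of 15 bases with 42.0 RPKM in ABP1d (15 reads) and 4.61 RPKM in WT (1 read). The gene tef5, for a subunit of the exchange factor that recharges EF1A with GTP, had 1 window with 39.7 RPKM (17 reads) and 7.68 RPKM (2 reads). The gene tif51, for the elongation-stimulating factor eIF5A, had 2 windows, with 35 ABP1d reads and 5 WT reads together, a ratio of 4.25 (1.66 to 13.9). At the scale of the strain totals all 4 windows were higher in ABP1d. The background is 82.9% of all listed windows and 92.0% of those on protein-coding genes, so nothing is read from this count. With protein-coding windows centred, 3 of the 4 were higher and 1 lower. The uncentred median log2 ratio of the 4 windows was 2.55, and none had a counterpart elsewhere. No window was listed on eft201 and eft202, the 2 genes of elongation factor 2, which moves the ribosome along the mRNA. The same held for tif1 (the RNA helicase eIF4A), sup35 and sup45 (the release factors, the latter annotated as erf1) and hbs1 (a ribosome rescue factor). A gene without a listed window is not shown to lack small RNAs or to be equal between the strains.

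Likeness to the tef genes was measured as the difference in summed log2 ratio from that of the 21 tef windows, 2.90, over 1 pooled value for each of the 2 strains and among protein-coding genes with at least 5 windows. The value of 2.90 counts the reads of shared windows at each gene, for a summed ratio of 7.48. The 9 distinct windows gave 7.01. Only 3 other genes had at least 5 windows. The nearest was ght5, a glucose transporter gene, with 5 windows, 128 ABP1d reads and 6 WT reads, a ratio of 13.0 (5.79 to 35.97) and a log2 ratio of 3.70. The genes tlh1 and tlh2 were further away, with log2 ratios of 1.04 and 1.03. Their plain ratios were 2.05 (1.92 to 2.19) and 2.04 (1.92 to 2.18).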

How the data were processed

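Small RNA libraries, 2 of WT and 2 of ABP1d, were prepared by adapter ligation and size selection and sequenced for 38 cycles, per the labels' protocols. The submitters' processing notes name Bowtie 0.12.5. Region caller, build, read filters and test: not given in the sources used here. Deposited RPKM values are scaled by the authors to window length and a strain total, pooled over libraries. The deposited p-value of a window is the authors'. No value column was left unmapped (0 columns): the first value column matched the ABP1d list in 7 of 7 regions with equal coordinates and the second the WT list in 124 of 124.

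The smallest total that made RPKM times length whole (tolerance 1e-06) gave the reads. The listed starts were used as 1-based and the ends as 1 past the last base: of 15853 pairs of windows of at least 15 bases with equal reads and length on chromosomes I to III, 5364 were reverse complements under this reading and 0 with starts read as 0-based. Ratios have Clopper-Pearson 95% intervals, given the summed reads of both strains. A floor of 3 pooled reads stood in for 0. Python 3.11.15, SciPy 1.17.1 and Biopython 1.88 were used, and the steps were tested on simulated data. With pooled values, no test between strains was made, and the count test foreseen for library counts was not used.

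All 3 genes and all their windows are named, with the listed translation factors and up to 4 genes of nearest summed ratio. The members and lists were chosen with earlier results of these data known. Genes named for their number of windows or counterparts, and the neighbouring windows, were picked once their values were known. Alternatives were 4 other scalings, filters of 20 reads and of p at most 0.001, whole overlap, A/T runs of at least 15 bases left out, a floor of 1 read, other treatments of shared windows, and 0-based starts.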

Additional observations from a re-analysis of the deposited data

How the results depend on the processing

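No paired analysis was possible because the values are pooled per strain, and leaving out a library was not possible for the same reason. The scalings shifted every log2 ratio by -0.66 (totals without the large rRNA repeats), -1.25 (5S rRNA windows centred), -2.03 (snRNA windows centred) and -2.09 (protein-coding windows centred). With the first 2, all 21 tef windows stayed higher in ABP1d. With snRNA windows centred 11 were higher and 10 lower, and with protein-coding windows centred 10 and 11. Of those that fell below 0, 7 had no WT read in both scalings. Their ratio rests on the floor, so they are not shown to be lower. The others were the 3 windows at CDS 666 to 682 and, in the second of these scalings, the tef103 start codon window. The centring windows were listed because they differ and are no known stable reference. Fewer windows entered under the filter of 20 reads, where 5 of 5 were higher, under p at most 0.001, where 9 of 9 were, and with shared windows counted once, where 9 of 9 were. With 5S, snRNA and protein-coding windows centred in turn, the summed ratio was 3.35, 1.95 and 1.88 for tef101 and for the shared windows, 3.11, 1.81 and 1.74 for tef102, 3.04, 1.77 and 1.70 for tef103, and 2.58, 1.502 and 1.45 for the windows of one gene. No summed ratio fell below 1. At p at most 0.001, tef101 and the shared windows had no WT read left and gave no ratio, and tef101 has no window of its own to sum. The other 41 values stayed within the interval or the size of the main one. Many of these could not move. Whole overlap, A/T runs left out, the floor of 1 read, 0-based starts and sharing by sequence left windows and reads unchanged. Such repeats show no stability. The floor does enter the medians and the ratios of single windows with 0 WT reads, for which no such repeat is given. Reading starts as 0-based, an alternative chosen after seeing the data, changed no count or sum, but then none (0) of the 6 shared sets had identical sequences. With at most 5 WT reads in a tef window, depth limits every ratio.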
